A study of Homo sapiens with 4 samples.

Results

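GRO, GRO-alpha and IL-8 are the chemokines on this protein panel that bind the receptor CXCR2, and they were taken by name as 3 of the 21 distinct proteins measured. The medium came from U937, a human line of monocytic character that the labels class as acute myeloid leukaemia. Biotin-labelled medium was assayed on antibody arrays, 1 array for each of 4 samples. All lines had been retrovirally transduced and stably selected. The control line carried the vector alone, and the others carried F1F2 or F2F3, dominant negative fragments of the adaptor TIFA. The samples were vector cells with PBS, vector cells with 10 µM cytarabine for 72 h, F1F2 cells with the same treatment, and F2F3 cells with the same treatment. No treatment time was recorded here for the PBS sample. Whether each line was a clone or a mixed selected population is not given in the sources used here, and no fragment line without cytarabine was analysed here. The design text lists F1F2 for both fragment samples. The last sample was taken as F2F3 from its own title. The panel holds secreted proteins only and so no markers of cell identity.

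CXCR2 ligands are small CXC chemokines with a Glu-Leu-Arg motif before the first cysteines, and they draw neutrophils to sites of inflammation. IL-8, the product of CXCL8, binds both CXCR1 and CXCR2, whereas the GRO chemokines, products of CXCL1, CXCL2 and CXCL3, act mainly through CXCR2. Monocytes and macrophages release all of them, and their genes are textbook targets of NF-kB, the transcription factor that TIFA activates through TRAF6. The row named GRO was read as the whole GRO family and the row named GRO-alpha as CXCL1, so both antibodies cover CXCL1 and are not independent readings of separate genes. Which of CXCL1, CXCL2 and CXCL3 the GRO antibody binds best is not given in the sources used here.

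The 4 genes lie on chromosome 4 within 359 kb (GRCh38.p14, RefSeq), between 73740569 and 74099195. The promoter stretches below are shown because the GRO antibody reads 3 near-copies of one gene and the IL-8 antibody reads a more distant relative. Each is written 5′ to 3′ on the gene's own strand, with the kappaB letters GGAATTTCC in capitals and 25 bases on either side, all upstream of the RefSeq start site and outside the transcript.
CXCL1 (GRO and GRO-alpha), chr4:73869290-73869348, plus strand: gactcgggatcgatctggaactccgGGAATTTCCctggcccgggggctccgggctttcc
CXCL2 (GRO), chr4:74099239-74099297, minus strand: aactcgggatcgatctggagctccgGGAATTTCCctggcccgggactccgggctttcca
CXCL3 (GRO), chr4:74038734-74038792, minus strand: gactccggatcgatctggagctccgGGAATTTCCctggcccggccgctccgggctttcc
CXCL8 (IL-8), chr4:73740453-73740511, plus strand: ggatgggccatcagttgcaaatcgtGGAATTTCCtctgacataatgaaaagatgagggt

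The capital letters begin 78 bases before the start site in CXCL1 and CXCL3, 77 bases before it in CXCL2 and 91 bases before it in CXCL8. Compared without gaps over the 59 bases shown, CXCL1 and CXCL3 were 93.2% identical, CXCL1 and CXCL2 81.4%, and CXCL2 and CXCL3 79.7%. CXCL2 is a base shorter after the capitals, which puts the letters that follow out of register. Its percentages therefore understate its likeness to CXCL1 and CXCL3. CXCL8 was 35.6% to 40.7% identical to the GRO genes, and the capitals account for part of that. These letters were searched because they are the known kappaB site of these genes, so their presence here is no finding. On both strands they occurred in 162 of 35116 promoters of 300 bases in the same RefSeq table, or 0.461%. Of the 12 other genes of the panel that the table holds, 0 had them in this window, which says nothing about other kappaB spellings. A match in DNA is a description and was not measured in these samples.

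All values below were read as linear, background-subtracted intensities relative to the positive control spot, which is 1 on every array. The sources used here do not state the scale. Each value is a single measurement (n = 1). Without replicates there is no spread to test a difference against, hence no p-value. Antibodies differ in strength, so the height of one protein does not rank its amount against that of another. Results were read mainly from changes between samples. Sums over proteins, the largest member of a sum and the ranges of dim proteins do set antibodies side by side, as signal and not as amounts. Values were not corrected for cell number or viability at collection, so fewer cells and less protein per cell cannot be told apart. A floor of 0.00990, the 25th percentile over the protein rows, replaced lower intensities before a ratio was taken, and folds that rest on the floor are bounds. A protein is called higher or lower from a fold of 1.5, a limit that describes size only. Summed over the 21 proteins, the intensity was 4.24 in vector medium with PBS, 4.35 in vector medium with cytarabine, 3.91 with F1F2 and 3.67 with F2F3.

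GRO was lower with either TIFA fragment than in both vector media. Its intensity was 0.557 in vector medium with PBS, 0.689 in vector medium with cytarabine, 0.296 with F1F2 and 0.280 with F2F3. The fragment media were the low ones, and they lay close to each other. Relative to vector medium with cytarabine, GRO stood at 42.9% with F1F2 and 40.6% with F2F3. The log2 ratios were -1.22 and -1.30, both past the limit. In vector cells cytarabine medium held 1.24-fold more GRO than PBS medium, which is within the limit.

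IL-8, the best known neutrophil attractant of the group, had the same order of samples as GRO but a narrower range. It read 0.574 in vector medium with PBS, 0.677 in vector medium with cytarabine, 0.477 with F1F2 and 0.456 with F2F3. Vector medium with cytarabine was again the highest and the fragment media the lowest. IL-8 stood at 70.4% of the vector cytarabine level with F1F2 and at 67.4% with F2F3. The log2 ratios of -0.51 and -0.57 were within the limit of 1.5-fold, though just inside it for F2F3, at 1.48-fold. Cytarabine against PBS in vector cells gave 1.18-fold.

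GRO-alpha, the CXCL1 antibody, was dim in every sample. It read 0.00224 in vector medium with PBS, 0.0608 in vector medium with cytarabine, -0.00458 with F1F2 and 0.0190 with F2F3. Vector medium with cytarabine was the one sample clearly above the floor, F2F3 medium lay a little above it, and the others lay below it. GRO-alpha was at least 6.14-fold higher with cytarabine than with PBS in vector cells. Relative to vector medium with cytarabine, F1F2 medium was lower by at least 6.14-fold and F2F3 medium by 3.21-fold. Both bounds rest on the same values and are equal for that reason. Their size depends on the floor: with it at the 50th percentile the log2 ratios were 0.70 for cytarabine against PBS and -0.70 with either fragment, and with a pseudocount of 0.05 in its place they were 1.09, -1.29 and -0.68. All of these kept their direction and their side of the limit. Neither a higher floor nor a pseudocount can turn a direction, so only the size was open to change. At the 50th percentile F2F3 medium also lay under the floor, so its ratio became a bound.

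**Figure D1:**
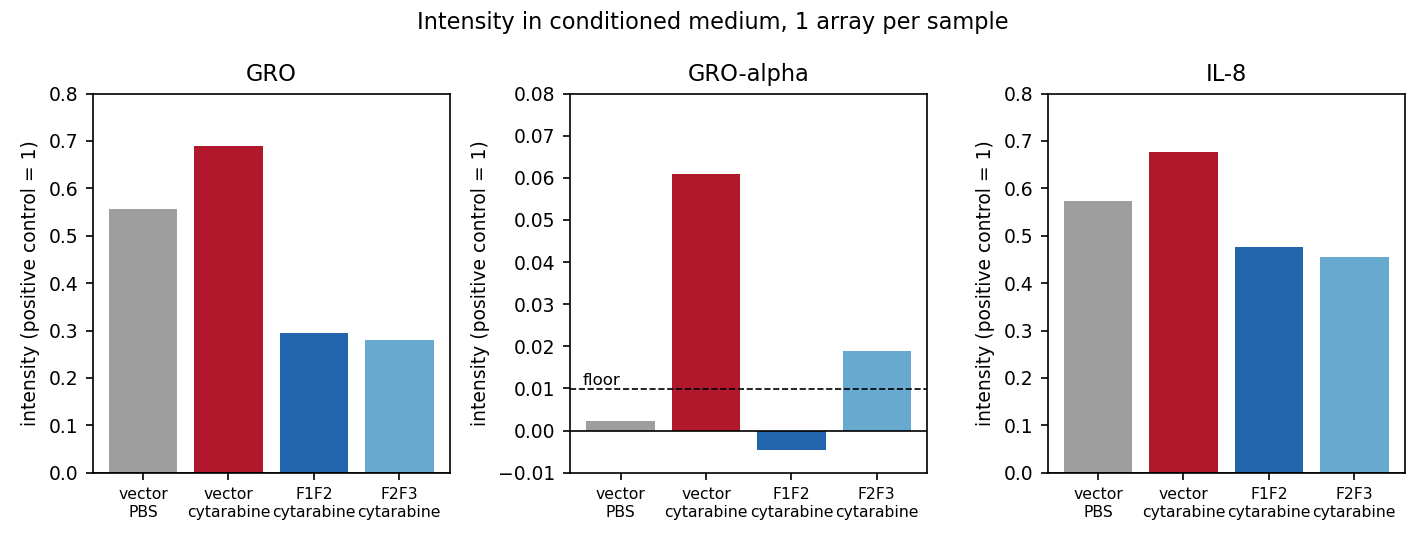
Intensity of GRO, GRO-alpha and IL-8 (positive control = 1) in the 4 samples, 1 array each, so bars have no error. GRO reads 0.689 in vector medium with cytarabine against 0.296 and 0.280 with the fragments, IL-8 reads 0.677 against 0.477 and 0.456, and GRO-alpha, on a smaller axis with the floor dashed, is highest in vector medium with cytarabine at 0.0608.

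How much of the GRO-alpha pattern exceeds the jitter of dim spots is unknown, since no spot was repeated. Its range over the 4 samples was 0.0654. The 11 other proteins that stayed under 0.1 in all samples had ranges from 0.0121 to 0.0361, with a median of 0.0183, and IL-7 had the highest. These ranges hold differences between the samples as well as error, and the limit of 0.1 leaves out IL-5, which was under it in both vector media and differed there by -0.0618, more in size than GRO-alpha. The GRO-alpha differences of 0.0586 between the vector media, -0.0654 with F1F2 and -0.0419 with F2F3 against vector with cytarabine were larger in size than the ranges of these 11. Its differences of 0.0167 between F2F3 and PBS and of -0.0236 between F1F2 and F2F3 were not.

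Set side by side, GRO and GRO-alpha differed in the same direction, by more than those dim ranges, in 3 of the 6 pairs of samples. The pairs were vector medium with cytarabine against each of the other 3 samples, so they share that array. GRO differed by 0.132 between the vector media, by -0.393 with F1F2 and by -0.409 with F2F3, both against vector with cytarabine. The GRO-alpha differences rest on values under the floor in 2 of these pairs, so no proportion between the antibodies was taken. Against PBS the values were as follows. GRO was -0.261 from PBS with F1F2 and -0.277 with F2F3, whereas GRO-alpha was -0.00683 and 0.0167 from it. For GRO both fragment media thus lay below PBS. For GRO-alpha F2F3 medium lay above PBS and F1F2 medium below it, with the PBS and F1F2 values both under the floor. GRO-alpha was thus called higher with F2F3 than with PBS, at least 1.92-fold or a log2 ratio of 0.94, opposite to GRO. In that comparison 6 of 17 proteins were called higher, and the GRO-alpha difference of 0.0167 did not exceed the dim ranges.

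GRO differed more than IL-8 between vector medium and either fragment medium. The difference of their log2 ratios does not depend on how the arrays are scaled, since any factor on an array cancels. It was -0.71 with F1F2 and -0.73 with F2F3 against vector medium with cytarabine, that is, the fold of GRO was 1.64 and 1.66 times that of IL-8. Between the vector media the same difference was 0.069, a factor of 1.05. Between the fragments it was 0.016. As a quotient of intensities, GRO over IL-8 was 0.970 in vector medium with PBS, 1.02 in vector medium with cytarabine, 0.621 with F1F2 and 0.613 with F2F3. The vector samples were alike in this quotient and so were the fragment samples, with a gap between them. The quotient has no meaning as an amount, because the antibodies differ, and unequal change does not show that IL-8 stayed level.

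Counted against the whole panel, GRO and GRO-alpha were called lower with each fragment and IL-8 was not. In the F1F2 comparison 16.7% of the 18 proteins with a ratio were called lower, and in the F2F3 comparison also 16.7%. In each case these were GRO, GRO-alpha and TNF-alpha. The median log2 ratio of the 3 CXCR2 ligands was -1.22 with F1F2 and -1.30 with F2F3, which is the ratio of GRO. Over all proteins with a ratio it was -0.19 and -0.082. Both comparisons share the vector cytarabine array. In the cytarabine comparison of the vector media, 17.6% of 17 proteins were called higher, and GRO-alpha was the only CXCR2 ligand among them. The ligands' median was 0.31 there, against 0.26 over all proteins.

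**Figure D2:**
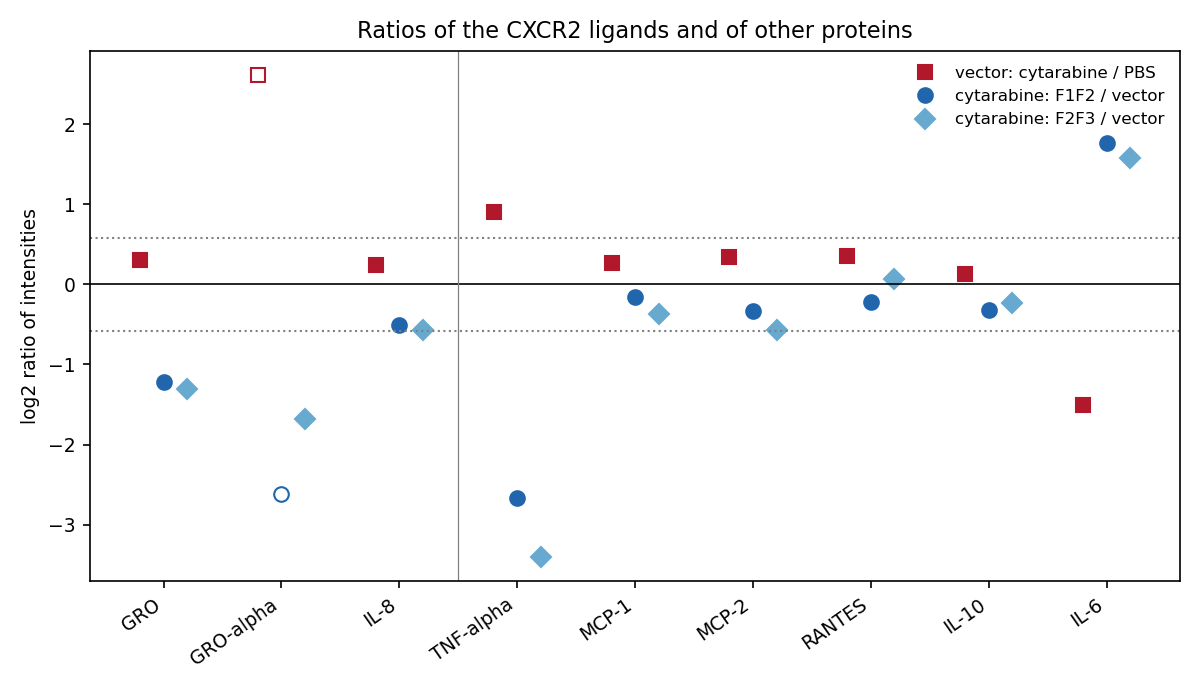
Log2 ratios of intensity for the CXCR2 ligands, left of the vertical line, and for the other proteins at or above 0.1 in vector medium with cytarabine, with squares for cytarabine over PBS in vector cells, circles for F1F2 over vector and diamonds for F2F3 over vector, both under cytarabine. Open symbols are bounds and dotted lines mark 1.5-fold. With the fragments GRO sits at -1.22 and -1.30 and IL-8 at -0.51 and -0.57.

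The other chemokines of the panel attract monocytes and lymphocytes through CC receptors or CXCR3 and not through CXCR2. MCP-1 (CCL2) and MCP-2 (CCL8), which recruit monocytes, stood at 89.7% and 79.2% of the vector cytarabine level with F1F2 and at 77.3% and 67.4% with F2F3. RANTES (CCL5), which recruits T cells and monocytes, stood at 86.2% and 104%. None of these 3 passed the limit. Relative to the median of these 3 CC chemokines, GRO was lower by a log2 difference of -1.01 with F1F2 and -0.93 with F2F3. The same difference for IL-8 was -0.29 and -0.20. IL-8 thus lay near MCP-2, which with F2F3 stood at the same percentage, while GRO lay farther from the CC chemokines. Of all 5 other chemokines, 0 were called lower with either fragment. MCP-3 was called higher with both, and MIG, a ligand of CXCR3, with F2F3. Their median log2 ratio was -0.16 with F1F2 and 0.063 with F2F3.

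TNF-alpha, the cytokine that triggers NF-kB through its receptors and whose gene NF-kB also drives, shared the order of samples with GRO and IL-8. It read 0.467 in vector medium with PBS, 0.871 in vector medium with cytarabine, 0.137 with F1F2 and 0.0824 with F2F3. No protein of the 21 besides these 3 had that order as deposited. For GRO and IL-8 its step from F1F2 to F2F3 was small, at 1.06-fold and 1.05-fold, and turned at the same total per array. IL-10 differed from this order in that step alone, at 0.184 with F1F2 and 0.196 with F2F3. The log2 ratio of TNF-alpha to vector medium with cytarabine was lower than that of GRO, by differences of -1.45 with F1F2 and -2.10 with F2F3. Of the 7 other NF-kB targets on the panel, 6 had a ratio. With each fragment 1 was called lower (TNF-alpha), 1 higher (IL-6) and 4 were within the limit. Their median log2 ratio was -0.19 with F1F2 and -0.13 with F2F3. Cytokines of lymphocytes were taken as proteins of another cell type. The summed intensity of the 4 (IL-2, IL-5, IL-13 and IFN-gamma) was 0.101 with PBS, 0.0560 in vector medium with cytarabine, 0.161 with F1F2 and 0.178 with F2F3. IL-5 made up most of the sum except in vector medium with cytarabine, where IFN-gamma was the largest of the 4, at 0.0328. IL-2 had its own highest value in that medium, at 0.0131, and the same order of samples as GRO-alpha. With F1F2, 1 of the 3 with a ratio was called higher (IL-5), and with F2F3, 2 of 3 (IL-5 and IFN-gamma). IL-13 was under the floor in all samples, and the part of this list in the result was not tested.

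**Figure D3:**
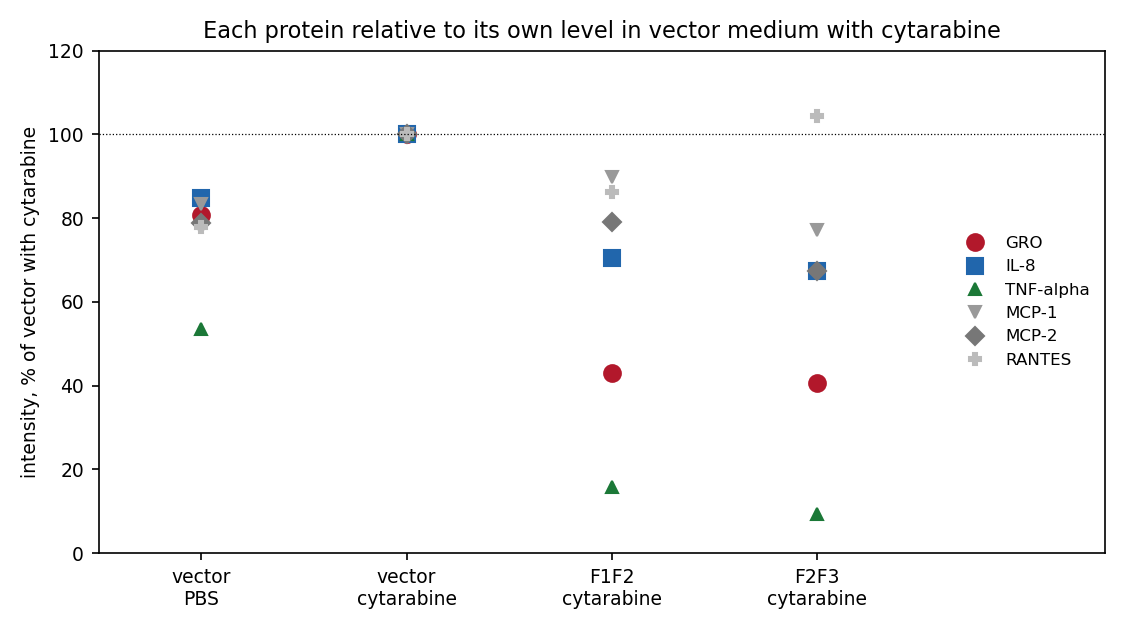
Intensity of GRO, IL-8, TNF-alpha and 3 CC chemokines in the 4 samples, each as a percentage of its own value in vector medium with cytarabine (dotted line at 100), 1 array per sample. With the fragments GRO stands at 42.9% and 40.6%, below IL-8 at 70.4% and 67.4% and above TNF-alpha at 15.7% and 9.47%.

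Between vector medium with cytarabine and that with PBS, GRO differed by 0.132 in intensity. The difference between vector medium with cytarabine and the fragment media was 2.98 times as large for F1F2 and 3.10 times for F2F3. For IL-8 the vector media differed by 0.103, and the fragment differences were 1.95 and 2.15 times as large. Both ligands therefore ended below the PBS level. The PBS medium held 1.88-fold the GRO signal of F1F2 medium and 1.99-fold that of F2F3 medium, past the limit in both. Against PBS, 18.8% of 16 proteins were called lower with F1F2 and 11.8% of 17 with F2F3. IL-8 was 1.20-fold and 1.26-fold lower, within it. The corresponding multiples were 1.82 and 1.95 for TNF-alpha, 0.981 and 1.54 for MCP-2, and 0.616 and 1.37 for MCP-1. TNF-alpha also ended below PBS with both fragments. So did IL-10, at 87.4% of PBS with F1F2 and 93.3% with F2F3. The dim IL-1-beta did too, at 0.0174 with PBS, -0.00153 with F1F2, where it was called lower, and 0.0136 with F2F3. With F2F3 alone, MCP-2 and MCP-1 ended below PBS as well, at 85.5% and 92.7%. Fragment lines without the drug were not analysed here, so whether the fragment lines release less GRO without cytarabine was not tested.

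Between the fragments GRO and IL-8 were close. GRO was 1.06-fold and IL-8 1.05-fold higher with F1F2 than with F2F3. GRO-alpha was under the floor with F1F2 and at least 1.92-fold lower than with F2F3, where 11.8% of 17 proteins were called lower. These differences have no interval, and at the same total per array the order of the fragments turned for GRO and IL-8, with log2 ratios of -0.012 and -0.029.

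The likeness of profiles was taken over the 13 proteins at or above the floor in every sample, with each protein's intensities expressed as percentages of their sum over the 4 samples. The overlap of 2 such profiles is 100% when they are the same. For IL-8 the nearest were MCP-2 at 97.5%, the anti-inflammatory cytokine IL-10 at 96.4% and the myeloid growth factor GM-CSF at 95.1%. For GRO the nearest were IL-8 at 88.9%, MCP-2 at 86.6% and IL-10 at 85.3%. From the side of IL-8, GRO came in sixth place at 88.9%. TNF-alpha, which shared their order of samples, overlapped GRO by 81.9% at place 6 and IL-8 by 71.4% at place 11. GRO took 37.8% of its sum in vector medium with cytarabine and 15.4% with F2F3, and IL-8 took 31.0% and 20.9%. GRO-alpha had values under the floor and was given no profile.

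The scaling of the arrays bears on whether IL-8 is counted as lower and not on GRO. Scaling to the same median of the 21 proteins, which rests on IFN-gamma or IL-7 at 0.0328 to 0.0523, took the log2 ratio of IL-8 to -1.04 with F1F2 and -1.24 with F2F3, past the limit, and that of GRO to -1.75 and -1.97. It shifted all ratios to vector with cytarabine down and called 10 proteins lower and 4 higher with each fragment, where the deposited scale called 3 lower and 4 or 6 higher. Scaling to the same total gave -0.35 and -0.32 for IL-8 and -1.07 and -1.05 for GRO. Scaling on the median change of the 5 other proteins at or above 0.1 in all samples, chosen after seeing the data, gave -0.29 and -0.34 for IL-8 and -1.01 and -1.07 for GRO. GRO was past the limit with both fragments under all 4 scalings.

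**Figure D4:**
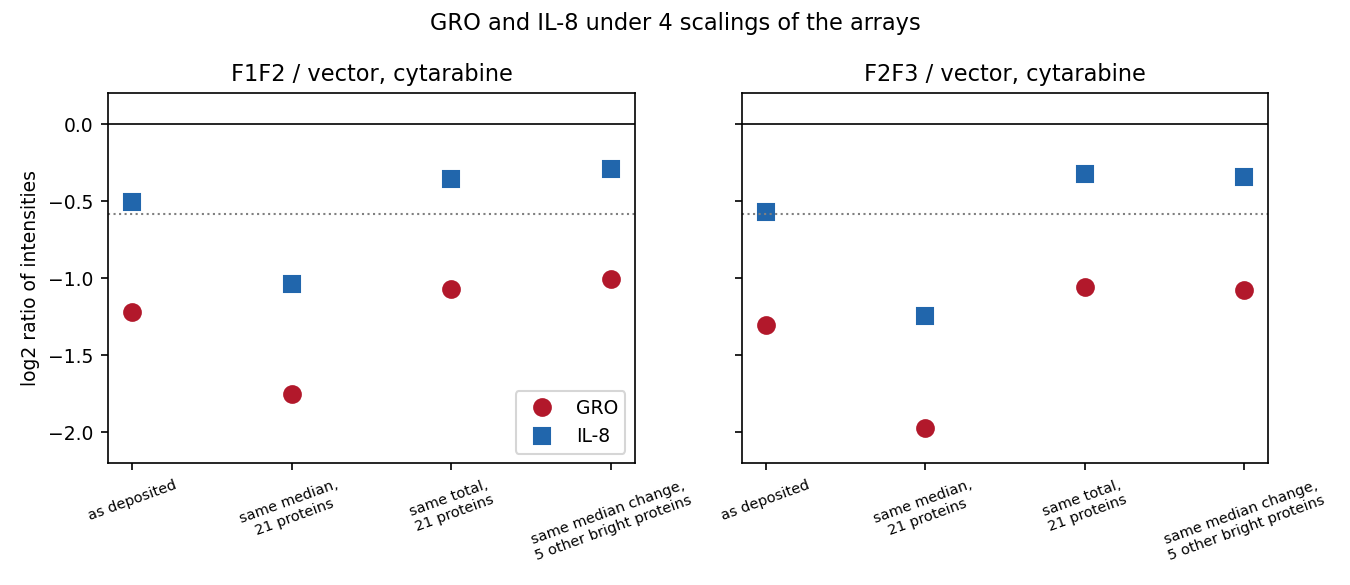
Log2 ratio of GRO (circles) and IL-8 (squares) to vector medium with cytarabine for F1F2 (left) and F2F3 (right) under 4 scalings of the arrays, with 1.5-fold marked by a dotted line. GRO lies between -1.01 and -1.97 throughout, and IL-8 passes the line under the same-median scaling alone.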

How the data were processed

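The authors deposited 1 table of intensities for the 4 samples, with 23 protein rows and 2 control rows. On every array the deposited intensity of the negative control is 0 and that of the positive control 1, and 13 of 92 protein values are below 0. They were read from this as linear, background-subtracted signals. The sources used here do not name the array, scanner or software. Arrays have no read depth, and 1 array per group limits the precision. The rows TGF-beta and TNF-beta are identical and were left out except in the percentile of the floor. The members, lists, motif and limits were chosen with earlier results of these data known. By rule, the 3 members were named in all samples, with the 3 proteins of nearest profile for each and the chemokine and NF-kB lists. The ratio code was tested on 200 simulated tables without noise, in which no value reached the floor. That test checks the arithmetic and does not bear on the precision of folds that rest on the floor. Alternatives were other scalings, floors, thresholds, a pseudocount and a filter on dim proteins. Sequences are from RefSeq (GRCh38.p14), which held all 4 genes. Python 3.11.15, pandas 2.3.3, NumPy 2.4.6 and matplotlib 3.10.9 were used.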

Additional observations from a re-analysis of the deposited data

How the results depend on the processing

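Single arrays limit every value, and the cause of each change below was not tested. The fall of GRO with both fragments and the larger fall of GRO than of IL-8 against vector with cytarabine kept direction and side of 1.5-fold under the alternatives run (for the difference from IL-8, a pseudocount of 0.05: -0.63 and -0.64). Not all of these could have changed them. The higher floor and the filter on dim proteins leave GRO as it is, so for GRO only the scalings and the pseudocount bear on the ratio. Scaling cancels in the difference from IL-8, for which only the pseudocount was run. With arrays at the same median, IL-8 passed the limit: -1.04 (F1F2) and -1.24 (F2F3) against vector with cytarabine, and -0.72 and -0.92 against PBS. GRO-alpha then came inside it, at 0.51 for F2F3 against PBS and -0.51 for F1F2 against F2F3. At the same total, F1F2 against F2F3 turned to -0.012 for GRO and -0.029 for IL-8. Scaled on the 5 other proteins at or above 0.1 in all samples, added after seeing the data, IL-8 with cytarabine against PBS turned to -0.025. A pseudocount of 0.05 put GRO minus IL-8 against PBS at -0.57 (F1F2) and -0.58 (F2F3), and GRO-alpha for F2F3 against PBS at 0.40, all inside the limit. With the floor at the 50th percentile, GRO-alpha for F2F3 against PBS or F1F2 had no ratio, and with dim proteins left out it had none at all.

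The number of proteins called was 7 for cytarabine against PBS, 7 for F1F2 and 9 for F2F3 against vector, 6 and 8 against PBS, and 3 between the fragments. With a looser threshold, a log2 ratio of 0.32, it was 11, 12 and 15 for cytarabine and for F1F2 and F2F3 against vector and 6 between the fragments. At 2-fold it was 4 for cytarabine, 2 and 3 against PBS, and 0 between the fragments. The same median gave 14 for either fragment. The higher floor gave 4 for cytarabine, 3 and 3 against PBS, and 1 between the fragments. The pseudocount gave 4 for cytarabine and 2 and 2 against PBS. Proteins at or above 0.1 alone gave 2 for cytarabine, 4 and 4 against vector, 3 and 2 against PBS, and 1 between the fragments. Fewer proteins were compared in some settings, so these counts are not shares. As deposited 16 to 18 had a ratio, against 11 to 14 with the higher floor and 8 or 9 at or above 0.1. The pseudocount gave all 21 a ratio. Counts that changed by no more than 1.5-fold are not listed.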
